A study of Mus musculus with 12 samples.

Results

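The sirtuins Sirt1 to Sirt7 were followed in hippocampi of aged and young mice housed either with an enriched environment (EE) or under standard conditions (SH). They were taken by gene name, and all 7 were found among the 23361 names of the deposited table, on 15 of its 29973 transcript rows. Where a sirtuin had several rows, the row with the highest summed signal was used. Enriched and standard-housed mice of both ages gave 4 groups of 3 libraries each, 12 in all. All mice were wild type on the C57/BL6 background and, per the study's methods, male. By the labels, aged mice were 14 to 17 months old and young mice 5 to 6 months old. The study's methods give ages at the beginning of the experiments, so the animals may have been older when tissue was taken. They came from a cohort trained in water mazes before and after several weeks of EE or SH. Each library came from 1 hippocampus of 1 animal. Expression was measured by SAGE-Seq, which counts a short tag beside a site of the enzyme NlaIII (CATG) close to the 3′ end of a polyadenylated transcript. Ideally a transcript gives 1 tag whatever its length. Levels were set side by side between genes on that basis, as RPM (reads of a gene scaled to a common library size of 1000000).

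Sirtuins are enzymes that use NAD+ to remove acetyl and other acyl groups from lysines, so that their activity is tied to the cell's energy state. Sirt1, Sirt6 and Sirt7 work mainly in the nucleus, Sirt2 mainly in the cytoplasm, and Sirt3, Sirt4 and Sirt5 in mitochondria. In the brain Sirt1 is known for its part in neuronal plasticity and Sirt2 as a protein of myelinating oligodendrocytes, and the family has long been studied in ageing.

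The tags expected for the sirtuins are shown because their position decides what each level can mean. For each gene the line gives the 27-base tag nearest to the poly(A) end of its GENCODE transcript model, 5′ to 3′ on the transcript's own strand, with the NlaIII site in capitals.
Sirt1: CATGatgtgtttgtgctatagacaata
Sirt2: CATGcagcttgtgtgagctcaaagacc
Sirt3: CATGaaataaacttagtataaaaactt
Sirt4: CATGcacagagtcctgtgcctgaactg
Sirt5: CATGaaactgaaaggacttcttaaccg
Sirt6: CATGtggaagaggccgtgtcccaggga
Sirt7: CATGaatgaactgggcctggagattcc

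In mouse genome build NCBIM37 (mm9) the Sirt1 tag lies in the 3′ UTR at chr10:62781977-62782003 on the minus strand. The Sirt2 tag lies in the 3′ UTR at chr7:29573149-29573175 on the plus strand, and the Sirt6 tag in the 3′ UTR at chr10:81084759-81084785 on the minus strand. The Sirt5 tag at chr13:43490158-43490184 on the plus strand and the Sirt7 tag at chr11:120481489-120481515 on the minus strand are both in coding sequence, since neither model had a site in its 3′ UTR. Each of these 5 tags and that of Sirt3 matched the genome at 1 place and nowhere else within 1 mismatch, and of the 74 distinct tags that the sirtuin models could give, 0 were shared between 2 sirtuins. The sirtuins can thus be told apart by their tags.

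Sirt3 and Sirt4 were the exceptions. The Sirt3 tag, at chr7:148049566-148049592 on the minus strand, overlaps the last exon of Ric8, a gene read in the opposite direction from the plus strand. Whether strand was used in the counting is not given in the sources used here. It is thus not known whether reads of Sirt3 and of Ric8 in this stretch were kept apart. The level of Sirt3 is uncertain to the extent that they were not. The reads listed under Ric8 were 9.20% to 20.4% of those listed under Sirt3 in the 12 libraries. The Sirt4 model has 2 NlaIII sites, both outside its 3′ UTR, and the one nearer to the poly(A) end is in coding sequence 914 bases from it. Its tag spans a splice junction (exons between chr5:115930517 and chr5:115932641, minus strand) and has 0 matches in the unspliced genome, exact or with 1 mismatch. The study states that reads were aligned to mm9. Reads of this tag may then not have been placed, and the level of Sirt4 may be understated, which was not tested. Which of a gene's tags gave its reads is not given in the sources used here. For Sirt6, transcript rows with the same 3′ end held 312 reads (the row used) and 208 reads. Part of the reads of the row used may thus come from tags other than the one shown.

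The libraries held 6928729 reads (aged SH replicate 3) to 16035089 reads (aged EE replicate 3) on transcript rows. All listed markers of neurons, astrocytes, oligodendrocytes and microglia were above 0 in every library, as hippocampal tissue would give. Libraries differed in position markers: the mean log2 level of dorsal hippocampus markers minus that of ventral ones was 2.66 and 2.36 in aged EE replicates 1 and 3 and 2.42 and 2.65 in young SH replicates 1 and 3, against −1.24 to −0.14 in the other 8 libraries. These 4 libraries stood apart from the remaining library of their own groups. Some differences, of Sirt2 and of the substrate genes Sod2, Glud1 and Rela, are given below also with the score in the model or without these libraries. For the other sirtuins only changes of sign by at least 1 SE are given, in the closing section. Leaving these 4 libraries out keeps 1 library each of aged EE and young SH, which the model assumes to vary like the other groups. Blood markers (3 genes) had summed levels of 1163 to 2713 RPM in young SH, against 434 to 1166 RPM in the 9 other libraries, a slight overlap, and choroid plexus markers (10 genes) of 928 RPM in aged EE replicate 3, against 63.6 to 134 RPM in the 11 others.

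The sirtuins spanned a wide range of levels. Sirt3 was highest with 129 ± 25.2 RPM (SD, n = 12 libraries), followed by Sirt2 with 45.5 ± 9.71 RPM and Sirt1 with 10.5 ± 1.69 RPM. Sirt7, which acts on chromatin and ribosomal RNA synthesis in the nucleolus, had 6.49 ± 1.01 RPM. Sirt6, a deacylase of chromatin at telomeres and metabolic genes, had 2.08 ± 0.546 RPM. Sirt5, which removes succinyl and malonyl groups from mitochondrial proteins, had 0.834 ± 0.298 RPM and Sirt4, a mitochondrial regulator of glutamine use, 0.290 ± 0.191 RPM. Sirt3 made up 66.3% of the summed RPM of the family and Sirt2 23.3%. Among the 13104 genes tested, 91.5% had a lower mean log2 level than Sirt3, 76.4% a lower one than Sirt2, 45.8% a lower one than Sirt1 and 4.78% a lower one than Sirt5.

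This order was the same in nearly every library. Sirt3 was above Sirt2 in 12 of 12 libraries, by 1.63 to 4.92 times, and Sirt2 above Sirt1 in 12 of 12, by 2.84 to 8.88 times. Sirt1 exceeded Sirt7 in 12 of 12 libraries, but by as little as 1.10 times, and their ranges of 7.36 to 13.4 RPM and 4.50 to 8.03 RPM overlapped. Sirt7 exceeded Sirt6 and Sirt6 exceeded Sirt5 in 12 of 12 libraries each. Sirt5 exceeded Sirt4 in 11 of 12, where Sirt4 may be understated because its tag spans a splice junction.

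**Figure D1:**
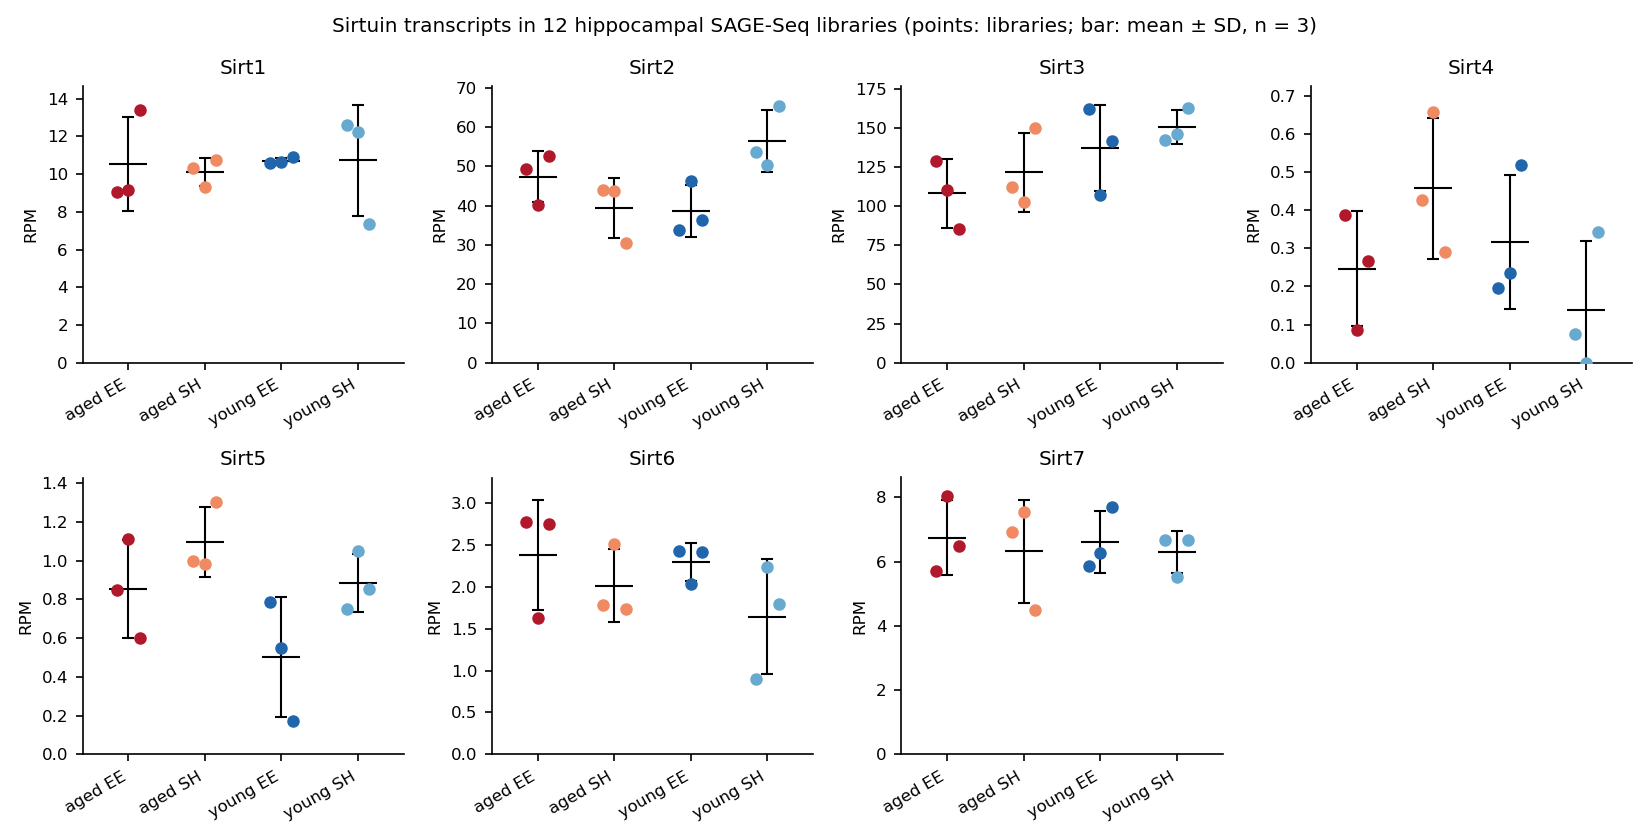
Level of each sirtuin in RPM (y axis, from 0, a scale of its own for each gene) by group (x axis), with 1 point per library and bars for the mean ± SD of 3 libraries. Sirt2 in young SH (50.3 to 65.3 RPM) sits above young EE and aged SH without overlap, while the groups of each other sirtuin overlap in every pair that was compared.

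The mitochondrial sirtuins other than Sirt3 were close to the limit of counting. Sirt4 had 0 to 6 reads per library and 41 in all. A library in which it was listed at 0, young SH replicate 2, allows a level of up to 0.210 RPM (3 reads, counting error only). That limit covers only reads that could be placed, since the Sirt4 tag spans a splice junction. Sirt4 did not pass the filter on low counts and was not tested, so 6 of the 7 sirtuins entered every comparison. Sirt5 had 2 to 15 reads per library, and at its mean of 10.1 reads counting alone gives a coefficient of variation of 31.5%, against 35.7% measured over the 12 libraries. For Sirt3, with a mean of 1596 reads, counting gives 2.50% against 19.5% measured. The measured spread of Sirt5 was thus close to counting error, and that of Sirt3 well above it. Tags carried no molecular identifiers, so that these counting errors are lower limits.

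Differences were tested with limma on log2(RPM + 0.5), with p-values adjusted by Benjamini-Hochberg over all 13104 genes and a threshold of 0.10. A fold change on this scale understates changes of the lowest genes. Replicates are separate animals.

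The first question was whether enrichment changes the sirtuins in aged mice. No sirtuin passed the threshold between aged EE and aged SH. In this comparison limma called 0 of 6 sirtuins, beside 0.00763% of all genes, and 0 of them had an unadjusted p below 0.05, beside 8.87% of all genes. Both the quasi-likelihood and likelihood ratio tests of edgeR and DESeq2 also called 0 of 6. Sirt1 had 9.04, 9.14 and 13.4 RPM in aged EE, against 10.3, 9.30 and 10.7 RPM in aged SH, and the groups overlapped. Its fold change was 1.02 (95% interval 0.726 to 1.44). Sirt2 had 49.3, 40.1 and 52.6 RPM in aged EE, against 44.0, 43.7 and 30.5 RPM in aged SH, with a log2 fold change of 0.27 ± 0.20 (SE, limma adjusted p = 0.706). Sirt3 had 129, 110 and 85.5 RPM in aged EE, against 112, 103 and 149.8 RPM in aged SH, with a log2 fold change of −0.17 ± 0.21 (limma adjusted p = 0.838). The intervals of the 6 sirtuins reached down to 0.558-fold (Sirt5) and up to 1.75-fold (Sirt6), so that differences of that size were not excluded.

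The same question in young mice gave 0 of 6 sirtuins called by limma between young EE and young SH, beside 0.0763% of all genes, and 0 of 6 by both tests of edgeR and by DESeq2. At an unadjusted p under 0.05 there was 1, Sirt2, beside 9.79% of all genes. Sirt2 had 33.7, 46.2 and 36.2 RPM in young EE, against 53.7, 50.3 and 65.3 RPM in young SH. All 3 young EE libraries were below all 3 young SH libraries, as was the case in either direction for 12.8% of all genes tested. The log2 fold change was −0.54 ± 0.20 (0.686-fold, 95% interval 0.510 to 0.924, limma adjusted p = 0.421). The difference thus did not pass the threshold. Without the 4 libraries with high dorsal scores it was −0.39 ± 0.30, with young SH at 1 library. All 3 blood markers had negative log2 fold changes in the same comparison (median −1.53), and their part in the result was not tested. Sirt5 had 0.788, 0.549 and 0.173 RPM in young EE, against 0.749, 1.05 and 0.855 RPM in young SH (12, 7 and 2 reads against 10, 15 and 10 reads). Its log2 fold change of −0.51 ± 0.27 had a limma adjusted p of 0.566, and the groups overlapped. Sirt6 had 2.43, 2.04 and 2.42 RPM in young EE, against 0.899, 2.24 and 1.80 RPM in young SH, with a log2 fold change of 0.43 ± 0.29 (limma adjusted p = 0.640). Sirt1 and Sirt7 had fold changes of 1.02 and 1.04, with 95% intervals of 0.726 to 1.45 and 0.741 to 1.47.

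Averaged over both ages, EE against SH called 0 of 6 sirtuins with limma, beside 0% of all genes, with 0 at an unadjusted p under 0.05 (6.32% of all genes) and 0 called by edgeR or DESeq2. Log2 fold changes lay between −0.38 ± 0.19 (Sirt5, limma adjusted p = 0.785) and 0.31 ± 0.20 (Sirt6, limma adjusted p = 0.785).

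The housing effect of Sirt2 had opposite signs at the 2 ages. The test of that difference, the housing effect in aged minus that in young, gave 0.82 ± 0.28 on the log2 scale (1.76-fold, 95% interval 1.16 to 2.68, limma adjusted p = 0.292). It called 0 of 6 sirtuins with limma, as with edgeR and DESeq2, beside 0% of all genes, and Sirt2 was the 1 sirtuin at an unadjusted p under 0.05, where 12.2% of all genes were. Without the 4 libraries with high dorsal scores it was 0.43 ± 0.43, with aged EE and young SH at 1 library each. For Sirt1 the difference was −0.00 ± 0.32 and for Sirt3 −0.01 ± 0.29. Both intervals were wide, from 0.614 to 1.63-fold for Sirt1 and from 0.638 to 1.54-fold for Sirt3.

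**Figure D2:**
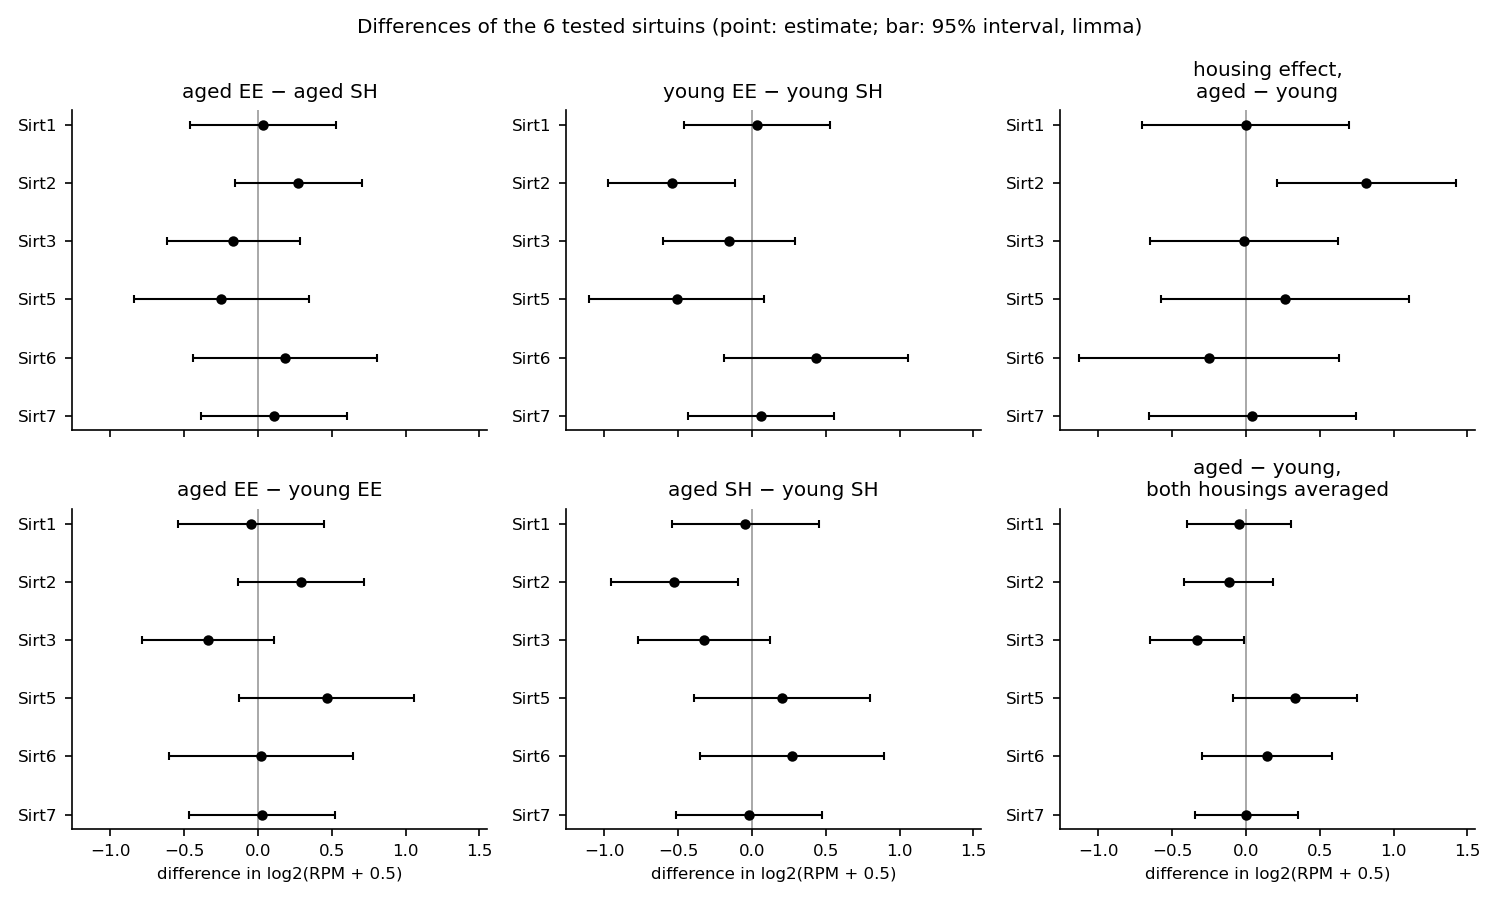
Differences in log2(RPM + 0.5) (x axis) of the 6 tested sirtuins (y axis) in 6 comparisons, as estimates with 95% intervals from limma. The interval of Sirt2 leaves 0 out for housing in young mice (−0.54), for age in standard housing (−0.53) and for the difference of the housing effects (0.82), and that of Sirt3 for aged against young (−0.33), before any adjustment over genes.

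The question of age was asked in each housing. Between aged SH and young SH limma called 3.23% of all genes and 0 of 6 sirtuins, and edgeR and DESeq2 also called 0 of 6. Sirt2 was the 1 sirtuin at an unadjusted p under 0.05, as were 19.3% of all genes, a share close to 1 of 6. It had 44.0, 43.7 and 30.5 RPM in aged SH, against 53.7, 50.3 and 65.3 RPM in young SH. The 3 aged SH libraries were all below the 3 young SH libraries, as 24.6% of all genes were apart in either direction. The log2 fold change was −0.53 ± 0.20 (0.695-fold, 95% interval 0.516 to 0.935, limma adjusted p = 0.189). The lowest value belonged to aged SH replicate 3, the library with the fewest reads, and without it the log2 fold change was −0.35 ± 0.19 (limma adjusted p = 0.428). Without the 4 libraries with high dorsal scores it was −0.37 ± 0.30, with young SH at 1 library. This comparison shares its young SH libraries with that of housing in young mice, so the low Sirt2 of aged SH and of young EE was measured against the same 3 libraries.

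Between aged EE and young EE limma called 0% of all genes and 0 of 6 sirtuins, with 0 at an unadjusted p under 0.05 (7.86% of all genes) and 0 by edgeR and DESeq2. Sirt2 had 49.3, 40.1 and 52.6 RPM in aged EE, against 33.7, 46.2 and 36.2 RPM in young EE, a log2 fold change of 0.29 ± 0.20 (limma adjusted p = 0.694). Sirt5 had 0.850, 1.11 and 0.603 RPM in aged EE, against 0.788, 0.549 and 0.173 RPM in young EE, with a log2 fold change of 0.47 ± 0.27 (limma adjusted p = 0.664). Both pairs of groups overlapped.

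With both housings averaged, aged against young mice gave 0 of 6 sirtuins called by limma, beside 0% of all genes, and 0 by edgeR and DESeq2. Sirt3, the deacetylase that controls much of the mitochondrial acetylome, was the 1 sirtuin at an unadjusted p under 0.05, as were 16.2% of all genes. It had 129, 110 and 85.5 RPM in aged EE and 112, 103 and 149.8 RPM in aged SH, against 162, 107 and 141 RPM in young EE and 143, 146 and 163 RPM in young SH. Its mean was lower in aged mice under both housings, but 1 aged SH library lay among the young values and 1 young EE library among the aged ones. The log2 fold change was −0.33 ± 0.15 (0.795-fold, 95% interval 0.638 to 0.991, limma adjusted p = 0.289), and the limits from Ric8 apply to it. By the likelihood ratio test of edgeR 0 of 6 sirtuins were at an unadjusted p under 0.05. Sirt1 was 0.969-fold (95% interval 0.759 to 1.24) and Sirt7 had a log2 fold change of 0.00 ± 0.16 (interval 0.786 to 1.28-fold) for aged against young.

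Because Sirt2 is known as a gene of myelinating cells, its level was set beside the mean log2 level of 12 oligodendrocyte markers. This score was 6.26, 5.51 and 6.00 in aged EE, 5.71, 5.34 and 5.81 in aged SH, 5.69, 5.23 and 5.11 in young EE and 6.61, 5.22 and 6.64 in young SH. Summed marker levels ran from 3155 to 5608 RPM in aged EE, 2402 to 4671 RPM in aged SH, 1707 to 3376 RPM in young EE and 1255 to 4835 RPM in young SH, with no marker at 0. In bulk tissue, fewer oligodendrocytes and less RNA per oligodendrocyte cannot be told apart. Of the 12 markers, 0 had a positive log2 fold change between young EE and young SH (median −0.72), 10 had one between aged EE and aged SH (median 0.26), and limma called 0 in either, with 5 and 1 at an unadjusted p under 0.05. Medians over all genes tested were −0.00 and 0.03. Between aged SH and young SH, 1 of the 12 markers had a positive log2 fold change (median −0.52, against −0.01 over all genes tested), and limma called 0, with 1 at an unadjusted p under 0.05.

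Across the 12 libraries Sirt2 and the score had a Pearson r of 0.537 (two-sided permutation p = 0.0720) and a Spearman rho of 0.503 (permutation p = 0.0992), the only relation computed, so that adjustment leaves p as it is. Without the 2 libraries farthest from the median of the score, young SH replicates 1 and 3, r was 0.125 (permutation p = 0.728), and the relation rests on them. As deviations from the group means r was 0.194 (permutation p = 0.553). Young SH replicate 2 had the highest Sirt2 outside those 2 libraries and aged EE replicate 3, at 50.3 RPM, but a marker score of 5.22, above only that of young EE replicate 3 (5.11).

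With the marker score as a covariate Sirt2 differed by −0.47 ± 0.25 between young EE and young SH (limma adjusted p = 0.909), and the difference of the housing effects was 0.71 ± 0.34 (limma adjusted p = 0.765). With dorsal minus ventral markers as a covariate the difference of the housing effects of Sirt2 was 0.39 ± 0.35 (limma adjusted p = 0.998) and that between young EE and young SH −0.33 ± 0.22 (limma adjusted p = 0.870). The 4 libraries with dorsal scores above 2 had 49.3, 52.6, 53.7 and 65.3 RPM of Sirt2. The other 8 had 30.5 to 50.3 RPM.

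**Figure D3:**
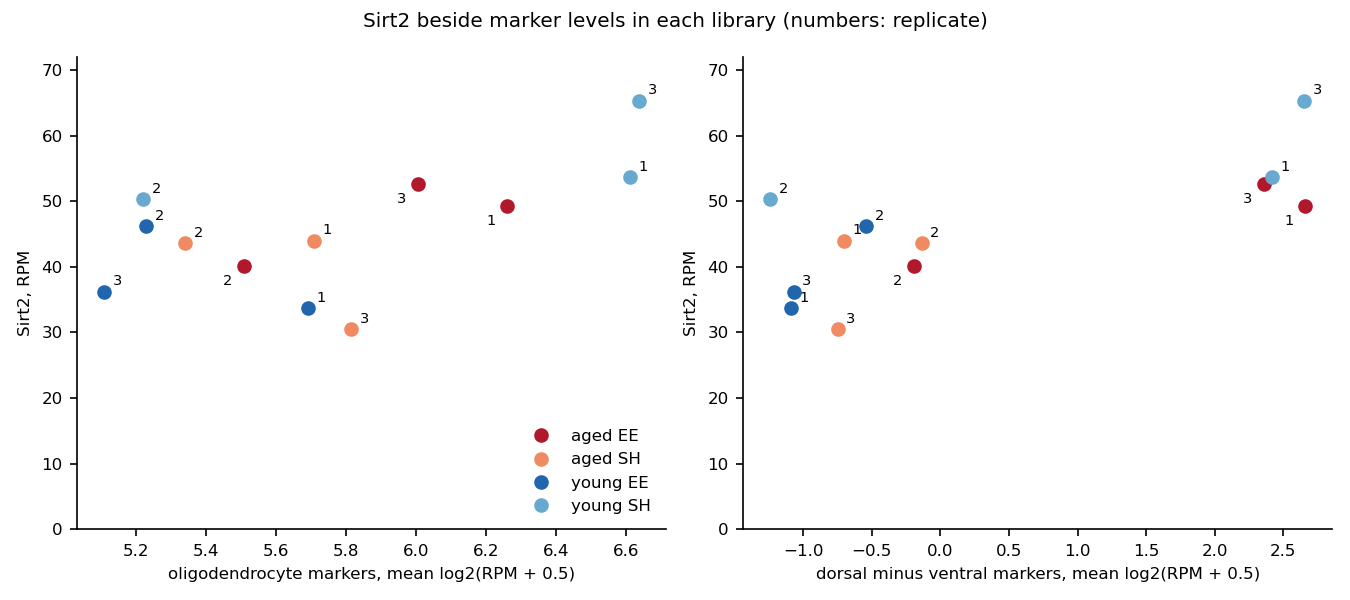
Sirt2 in RPM (y axis, from 0) against the mean log2(RPM + 0.5) of 12 oligodendrocyte markers (left, x axis) and against dorsal minus ventral hippocampus markers (right, x axis), with 1 point per library coloured by group and numbered by replicate. In the right plot 2 aged EE and 2 young SH libraries stand apart at 2.36 to 2.66 and hold 4 of the 5 highest Sirt2 values, the other being young SH replicate 2 (50.3 RPM) at the lowest score.

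Genes of NAD+ supply and NAD+ use, regulators of sirtuins and genes of proteins deacylated by sirtuins were read as 5 lists. None of the 8 tested of 18 NAD+ supply genes was called by limma in any comparison. Nampt, the rate-limiting enzyme of the salvage pathway, had a log2 fold change of 0.11 ± 0.11 for EE against SH averaged over both ages (limma adjusted p = 0.840). Nadsyn1, the NAD+ synthetase, had 0.55 ± 0.23 between aged SH and young SH (limma adjusted p = 0.221), where 2 of the 8 were at an unadjusted p under 0.05, beside 19.3% of all genes. The list of NAD+ use also holds Nnmt, which acts on nicotinamide and not on NAD+. Its 10 tested of 12 genes gave 0 calls by limma as well. In aged SH against young SH 3 of them were at an unadjusted p under 0.05, beside the same 19.3%. The nearest was Cd38, the main NAD+ glycohydrolase of many tissues, with −0.90 ± 0.30 between aged SH and young SH (limma adjusted p = 0.147). Cd38 had 0.356, 0.766 and 0.435 RPM in aged SH, against 1.20, 0.980 and 2.14 RPM in young SH, close to the limit of counting like Sirt5. Cd38 was called by the likelihood ratio test of edgeR, but not by the quasi-likelihood test or DESeq2.

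All 14 regulators of sirtuins were tested and limma called 0 in any comparison. Between aged SH and young SH, Dyrk1a, a kinase that phosphorylates Sirt1, had a log2 fold change of 0.56 ± 0.17 (limma adjusted p = 0.132) and Elavl1, the RNA-binding protein HuR that stabilises Sirt1 mRNA, one of 0.55 ± 0.17 (limma adjusted p = 0.134). Both were among 3 of 14 at an unadjusted p under 0.05, close to the 19.3% of all genes. DESeq2 called both, and Usp22, a deubiquitinase of Sirt1, in the other direction. In that comparison DESeq2 called 1140 of all genes, against 423 with limma. The median of the list was 0.21 in that comparison, against −0.01 over all genes tested.

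Calls fell on the substrates, in aged SH against young SH. Of 14 tested of 17 mitochondrial substrates limma called 2 higher and 0 lower, Sod2 and Glud1, and of 22 tested of 23 nuclear and cytosolic substrates 0 higher and 1 lower, Rela, where 3.23% of all genes were called. Both tests of edgeR and DESeq2 called the same 3 genes, where the quasi-likelihood test called 347 of all genes and DESeq2 1140. Whether the counts of the lists differ from the share of all genes was not tested. The list medians were 0.04 and 0.01, against −0.01 over all genes tested.

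Sod2, the mitochondrial superoxide dismutase that Sirt3 deacetylates, had 85.3, 88.6 and 86.4 RPM in aged SH, against 57.2, 55.1 and 42.2 RPM in young SH. All 3 aged SH libraries were above all 3 young SH libraries, where 24.6% of all genes were apart in either direction. The log2 fold change was 0.76 ± 0.18 (limma adjusted p = 0.0840). It had 69.4, 94.1 and 78.9 RPM in aged EE, against 73.1, 103 and 98.1 RPM in young EE, and these overlapped. Young SH was the low group, and young EE against young SH gave 0.82 ± 0.18 (limma adjusted p = 0.315). DESeq2 and the likelihood ratio test of edgeR called this difference and limma did not, where DESeq2 called 111 of all genes and limma 10. The difference of the housing effects was −0.93 ± 0.25 (limma adjusted p = 0.252). DESeq2 called it and limma and edgeR did not, where DESeq2 called 309 of all genes and limma 0.

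Glud1, the glutamate dehydrogenase that Sirt3 deacetylates and Sirt4 inhibits, had 549.7, 560.9 and 605.1 RPM in aged SH, against 359.5, 395.02 and 317.9 RPM in young SH, a log2 fold change of 0.68 ± 0.16 (limma adjusted p = 0.0840). It had 580.4, 415.6 and 492.5 RPM in aged EE, against 443.0, 576.5 and 531.7 RPM in young EE, and these overlapped. Rela, the p65 subunit of NF-κB and a substrate of Sirt1 and Sirt2, had 5.48, 6.24 and 3.77 RPM in aged SH, against 10.7, 9.52 and 16.1 RPM in young SH, a log2 fold change of −1.15 ± 0.29 (limma adjusted p = 0.0894). Its 3 values in aged SH were all below those in young SH, beside the same 24.6% of all genes. Rela had 10.1, 9.31 and 7.24 RPM in aged EE, against 10.8, 8.31 and 5.19 RPM in young EE, and these overlapped.

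These 3 calls lay close to the threshold. Leaving out 1 library at a time ended each of them in 9 of 12 fits, all but those without young EE replicate 1, young EE replicate 2 or young SH replicate 2, with adjusted p of up to 0.300 for Sod2 and Glud1 and 0.328 for Rela. The log2 fold changes in these 12 fits were 0.62 to 0.84 for Sod2, 0.60 to 0.76 for Glud1 and −1.29 to −0.93 for Rela. With dorsal minus ventral markers as a covariate the adjusted p were 0.227, 0.179 and 0.253 for Sod2, Glud1 and Rela, with log2 fold changes of 0.64, 0.70 and −0.99. Without the 4 libraries with high dorsal scores, which leaves 1 young SH library, the log2 fold changes were 0.65 ± 0.25, 0.53 ± 0.23 and −0.85 ± 0.44 (limma adjusted p = 0.735, 0.780 and 0.852). In this comparison 3 of 3 blood markers had negative log2 fold changes, and their part was not tested.

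**Figure D4:**
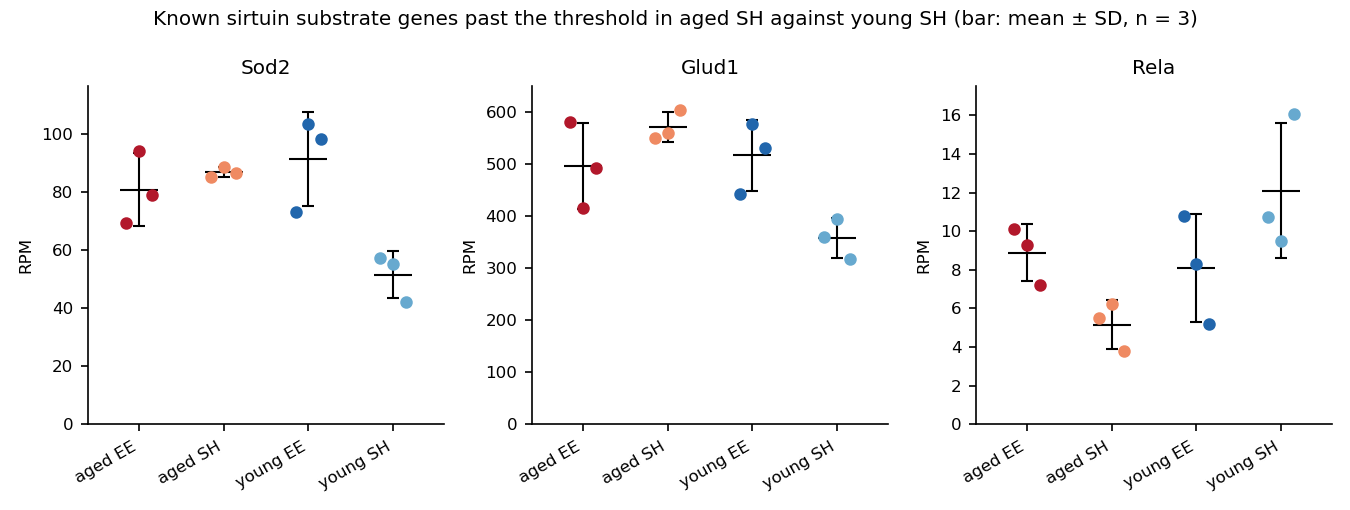
Levels of Sod2, Glud1 and Rela in RPM (y axis, from 0) by group (x axis), with 1 point per library and bars for the mean ± SD of 3 libraries. Young SH is the lowest group for Sod2 (42.2 to 57.2 RPM) and Glud1 (318 to 395 RPM) and aged SH the lowest for Rela (3.77 to 6.24 RPM).

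In the other comparisons limma called 0 genes of the 5 lists, with 2 nuclear and cytosolic and 1 mitochondrial substrate at an unadjusted p under 0.05 between aged EE and aged SH, of 22 and 14 tested and beside 8.87% of all genes. The smallest unadjusted p in aged EE against aged SH belonged to Idh2, the mitochondrial isocitrate dehydrogenase that Sirt3 deacetylates, with a log2 fold change of 0.46 ± 0.17 (limma adjusted p = 0.528), and the next to Rela with 0.74 ± 0.29 (limma adjusted p = 0.532). In aged against young mice with both housings averaged it belonged to Tuba1a, an α-tubulin of the kind that Sirt2 deacetylates. Its log2 fold change was −0.80 ± 0.23 (limma adjusted p = 0.169). DESeq2 and the likelihood ratio test of edgeR called Tuba1a, where DESeq2 called 1013 of all genes and limma 0.

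The genes whose levels followed each sirtuin most closely were looked up among 7320 genes with a mean of at least 10 RPM, as Pearson r of log2 levels over the 12 libraries. These are descriptions over libraries that differ in depth and in position markers. Each gene named was picked for a high r among 7320 genes over only 12 libraries. Such a pick gives a high r also among unrelated genes, and no relation was tested. For Sirt3 they were Fez2 (r = 0.959), Tram1l1 (0.927) and Nedd4, a ubiquitin ligase (0.918). For Sirt2 they included Zc3h7b (r = 0.902) and Cnot1, the scaffold of a deadenylase complex (0.895). Sirt7 was followed most closely by Hspa1b, an inducible Hsp70 (r = 0.903), Sirt6 by 6720456B07Rik (0.888), Sirt1 by Kremen1, a receptor of Dickkopf proteins (0.854), and Sirt5 by Sumf1, which activates sulfatases (0.844).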

How the data were processed

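SAGE-Seq libraries of 12 single hippocampi were sequenced on SOLiD and mapped by the authors to mouse build mm9 with 1 mismatch allowed. The deposited table gives a normalized signal per transcript, made by the authors with edgeR. Within each library every deposited signal value was a whole multiple of 1 step, and reads were recovered by dividing by it (100% of values below 1000 came out whole). Whether strand was used in counting is not given in the sources used here. The deposited tables also hold the authors' own fold changes and p-values, which were not used.

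For each gene name the row with the highest summed signal was kept. RPM are recovered reads scaled by TMM to a library size of 1000000 (edgeR 4.0.16). Genes passed filterByExpr with a minimum count of 10. log2(RPM + 0.5) was fitted with limma 3.58.1 (R 4.3.3), all 12 libraries and 4 groups in 1 model, with Benjamini-Hochberg adjustment and a threshold of 0.10. Alternatives were edgeR's tests and DESeq2 1.42.0 on recovered reads, other scalings, filters, pseudocounts and covariates, and leaving out libraries. The fitting code was tested on simulated data. Correlations used permutation tests with 100000 resamples (SciPy 1.17.1). Tags were taken from GENCODE models on NCBIM37.

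The sirtuins and the gene lists were chosen with earlier results of these data known. From each pathway list the genes named are those past the threshold or, where none passed, from the 2 with the smallest p in a comparison. For each sirtuin the genes most alike were ranked by Pearson r. 1 gene under this ranking is not reported here.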

Additional observations from a re-analysis of the deposited data

Results flagged for a closer look

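The housing effect on Sirt2 differed between the ages by the test of that difference, with 0.82 ± 0.28 on the log2 scale for aged minus young and an unadjusted p under 0.05. It did not hold after adjustment over 13104 genes (adjusted p = 0.292). Sirt2 had a mean of 47.3 RPM in aged EE and 39.4 RPM in aged SH, and a mean of 38.7 RPM in young EE and 56.5 RPM in young SH. With dorsal minus ventral markers as a covariate the difference was 0.39 ± 0.35, and without the 4 libraries with high dorsal scores, which leaves 1 library each of aged EE and young SH, it was 0.43 ± 0.43.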

How the results depend on the processing

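Under 29 alternatives (12 of them leaving out 1 library each, 1 chosen after seeing the data) 0 sirtuins were called in any of the 7 comparisons, and the lowest adjusted p of a sirtuin was 0.120. The number of all genes called moved far more. It ranged from 0 to 1197 for aged SH against young SH with 1 library left out, against 423 with all, and was 1140 with DESeq2. DESeq2 called 101, 111 and 5 genes for EE against SH in aged mice, in young mice and averaged, against 1, 10 and 0 with limma, and 52, 1013 and 309 for aged EE against young EE, aged against young averaged and the difference of the housing effects, against 0 each. With 1 library left out up to 5, 327, 2, 863 and 337 genes were called for EE against SH in aged mice, in young mice and averaged, aged against young averaged and the difference of the housing effects. Over the same fits Sirt2 moved between −0.68 and −0.43 for young EE against young SH, between −0.61 and −0.35 for aged SH against young SH and between 0.64 and 0.95 for the difference of the housing effects, and Sirt3 between −0.41 and −0.25 for aged against young.

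Of 1210 sirtuin fold changes under alternatives 97 changed sign, 86 of them by less than 1 SE. With the 8 libraries behind the study's tables Sirt1 was −0.22 for young EE against young SH and 0.35 for the difference of the housing effects, Sirt5 −0.16 for that same difference and Sirt2 0.041 for EE against SH averaged. With only the 8 libraries of low dorsal score Sirt6 was −0.23 for aged EE against aged SH, −0.10 for EE against SH averaged, −0.14 for aged SH against young SH, −0.39 for aged EE against young EE and −0.27 for aged against young averaged, and Sirt1 −0.16 for EE against SH averaged. With 1 library left out Sirt1 ranged from −0.20 (without young SH replicate 3) to 0.16 for young EE against young SH. The r of Sirt2 with oligodendrocyte markers ranged from 0.345 (without young SH replicate 3) to 0.666 (without aged SH replicate 3, permutation p = 0.0253), and was 0.639 without young SH replicate 2 (permutation p = 0.0348). The cause of these changes was not tested.

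Libraries with the same replicate number were not more alike than others. Deviations correlated between −0.24 and 0.21 for same-numbered libraries and between −0.39 and 0.42 for the others. These values cannot exclude shared processing by replicate number. With the replicate block 0 sirtuins and 130 genes were called for aged SH against young SH. Scaling by library total moved the median of all genes in that comparison to −0.11, against −0.01 with TMM. Depth limits Sirt4 and Sirt5, with 41 and 121 reads over all libraries.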
